A study of Arabidopsis thaliana with 6 samples.

Results

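The transcripts described are those of 10 genes of the Arabidopsis mitochondrial genome: 7 nad genes (nad1, nad2, nad4, nad4L, nad6, nad7 and nad9), cox1, cox2 and ccb382. They are a fixed list of symbols, each of which the array's platform table pairs with a probe set naming no other gene. Where a gene had several such probe sets the brightest, averaged over the 6 arrays, was used. The genes nad5, ccb203, ccb206 and ccb452 also have such a probe set but are not in the list. They are given below with the other mitochondrial genes. All 10 were found, among 13356 genes represented by 1 probe set each. Rosette RNA was hybridised to 6 ATH1 arrays (Affymetrix), with 3 biological replicates per group, each a pool of at least 15 rosettes. Both groups carried the cat2-2 mutation in Col-0 and were grown at 21 °C on agar with 1% sucrose under 16 h of light, on plates that also held shr-6 cat2-2 plants. The untreated group was sampled at 0 h, at 21 days after sowing. The treated group was sampled 24 h later, at 22 days, after the tape on the plates had been replaced by 2 layers of parafilm and the plants moved to continuous light at 100 μmol per square metre per second. Restricted gas exchange, continuous light and 1 day of age changed together, so their parts in any difference cannot be told apart. The labels call the treatment photorespiratory conditions. CAT2 is the chief catalase of leaves, an enzyme that breaks down the peroxide released by photorespiration. The level of that gene was not analysed here, because no probe set was tied to it through the tables used.

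Plant mitochondria keep a small genome that encodes a part of the respiratory chain, and the nucleus encodes the rest. The nad genes encode membrane and matrix-arm subunits of complex I, which passes electrons from NADH to ubiquinone. The cox genes encode the catalytic core of complex IV, cytochrome c oxidase, which passes electrons to oxygen. The gene ccb382 encodes a part of CcmF, which attaches heme to c-type cytochromes, and RefSeq now lists it as ccmFN1. Plant mitochondrial messages are transcribed by phage-type polymerases, spliced and edited. nad1, nad2 and nad5 are each assembled by trans-splicing from separately transcribed pieces. In plant mitochondria a poly(A) tail marks a transcript for decay, whereas the labelling used here starts from poly(A) tails, so a level on these arrays need not follow the abundance of the stable message.

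After the treatment, rosettes gave a higher signal for cox2 (1.65-fold), nad4L (1.25-fold) and nad6 (1.17-fold). They gave a lower signal for ccb382 (1.42-fold lower) and nad4 (1.19-fold lower). The other 5 genes, nad1, nad2, nad7, nad9 and cox1, did not pass the test. The 10 genes thus did not move one way: 3 rose and 2 fell, with a median difference of -0.11 on the log2 scale. This count stands against a background in which 41.7% of all 22746 tested probe sets passed, 19.4% higher and 22.2% lower, with a median difference of -0.01. A share of 5 in 10 is near that background. Groups did not overlap for 6 of the 10 genes, 3 with all treated arrays above and 3 with all below, against 50.8% of all probe sets (24.0% above and 26.7% below). The median size of the difference, without its sign, was 0.24 for the 10 genes and 0.18 for all tested probe sets. Values are the authors' RMA log2 levels, differences are treated minus untreated with n = 3 arrays per group, and errors after ± are standard errors. The test was limma's, and a gene passed where its p, adjusted by Benjamini-Hochberg across all 22746 probe sets, was below 0.05. In whole rosettes, fewer cells of a type, fewer mitochondria and less RNA per cell cannot be told apart.

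**Figure D1:**
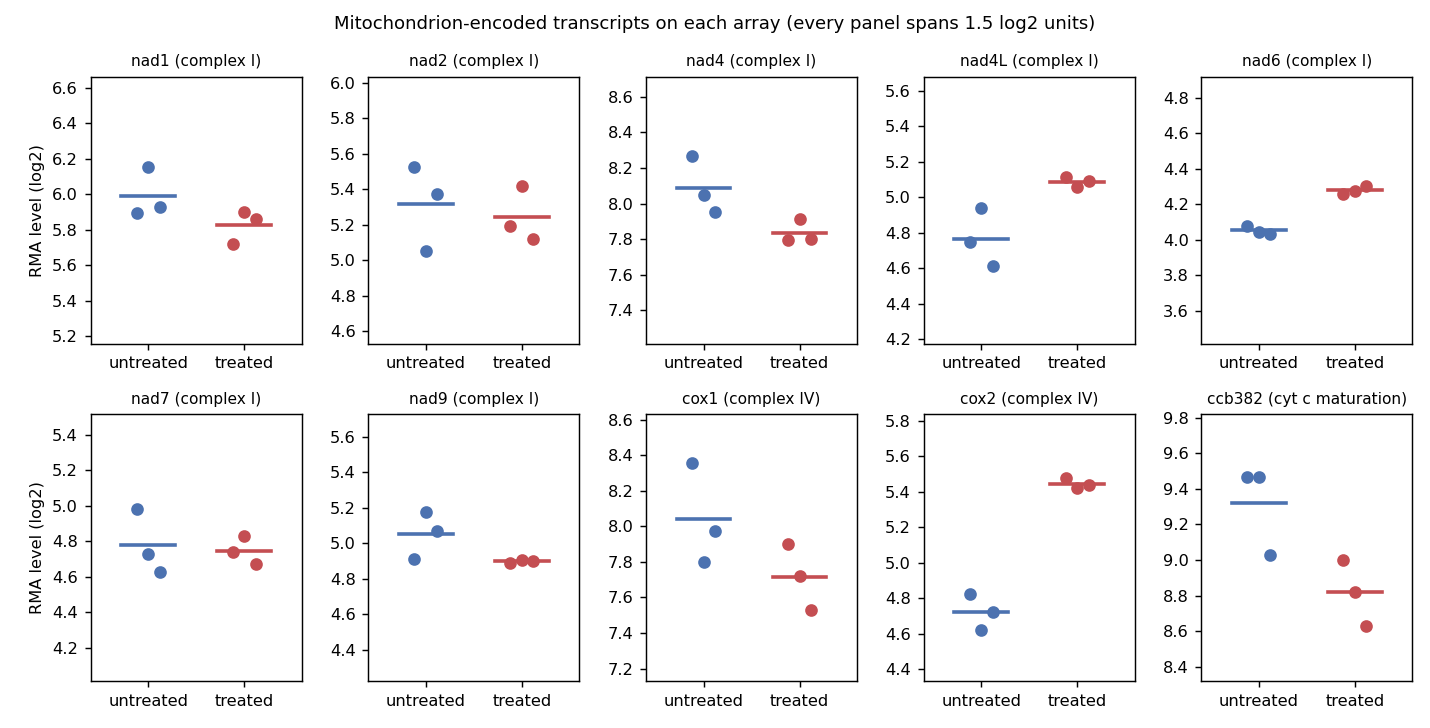
RMA log2 level (vertical axis, 1.5 log2 units in every panel) of the 10 mitochondrion-encoded genes on the 3 untreated and 3 treated arrays, with each point 1 array and each bar a group mean. The treated arrays of cox2, nad4L and nad6 all lie above the untreated arrays, and those of ccb382, nad4 and nad9 all lie below.

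In complex IV the 2 measured genes differed in sign. The subunit II gene cox2 stood at 4.82, 4.62 and 4.72 on the untreated arrays and at 5.48, 5.42 and 5.44 on the treated arrays. All 3 treated arrays were above all 3 untreated arrays, with a gap of 0.60 between the groups. The difference was log2 0.72 ± 0.08 (adjusted p = 2.06e-05), the largest in size of the 10 genes. It stayed past the threshold when any 1 array was left out, at log2 0.67 to 0.77. The subunit I gene cox1, which encodes the subunit that binds oxygen, stood at 8.36, 7.80 and 7.97 untreated and at 7.90, 7.72 and 7.53 treated. Its groups overlapped, since treated replicate 1 lay above untreated replicate 2. The difference of log2 -0.33 ± 0.14 did not pass (adjusted p = 0.0825), and its unadjusted 95% interval ran from -0.63 to -0.02. Without untreated replicate 1, its highest array, it was -0.17, and without untreated replicate 2 it was -0.45 and passed (adjusted p = 0.0222). The third cox gene, cox3, could be read only from a probe set that also names the nuclear locus AT2G07687, where the difference was log2 0.12 ± 0.09 (adjusted p = 0.353).

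Of the 7 complex I genes among the 10, 2 rose and 1 fell, where 19.4% of all probe sets rose and 22.2% fell. The complex I gene nad5, also measured, is given with the other mitochondrial genes. The gene nad4L, for a small membrane subunit, stood at 4.75, 4.94 and 4.61 untreated and at 5.11, 5.06 and 5.09 treated. Its treated arrays lay close together and above all untreated arrays. The difference was log2 0.32 ± 0.09 (adjusted p = 0.0149), and it missed the threshold without untreated replicate 3 (log2 0.24; adjusted p = 0.0600). The membrane subunit gene nad6 was the dimmest of the 10, at 4.08, 4.04 and 4.03 untreated and at 4.26, 4.27 and 4.30 treated. Arrays of a group lay close together, and the groups did not overlap. The difference of log2 0.23 ± 0.07 passed (adjusted p = 0.0251). It was lost when any 1 array other than untreated replicate 1 was left out, at log2 0.21 to 0.24. Its mean level was at the 19.4th percentile of all probe sets, and whether it is above background was not tested. Its probe set is one whose name marks probes shared between sequences.

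The fall in complex I was in nad4, for one of the large proton-pumping membrane subunits. Its levels were 8.27, 8.05 and 7.95 untreated and 7.79, 7.91 and 7.80 treated. The groups did not overlap but lay only 0.04 apart. The difference was log2 -0.25 ± 0.09 (adjusted p = 0.0493), just inside the threshold. Leaving out any array other than untreated replicate 3 ended the call, with the smallest difference, -0.16, without untreated replicate 1. With arrays set level on the brighter bacterial poly(A) spike transcripts, added before labelling, it was log2 -0.11 (adjusted p = 0.509).

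The remaining 4 complex I genes of the 10 did not pass. The nad9 gene, for a matrix-arm subunit, stood at 4.91, 5.18 and 5.07 untreated and at 4.89, 4.90 and 4.90 treated. Its groups did not overlap, by a gap of 0.0083, and the difference was log2 -0.15 ± 0.08 (adjusted p = 0.179; 95% interval -0.34 to 0.03). The nad7 gene, for the matrix-arm subunit near the quinone site, stood at 4.98, 4.73 and 4.63 untreated and at 4.74, 4.83 and 4.67 treated. Its difference was log2 -0.03, with an interval from -0.25 to 0.19. The membrane subunit gene nad2 stood at 5.53, 5.05 and 5.37 untreated and at 5.19, 5.42 and 5.12 treated, with a difference of -0.07 and an interval from -0.34 to 0.20. In both genes the groups overlapped and the replicates spread more widely than the group means lay apart.

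The gene nad1, for the membrane subunit at the joint of the arms, stood at 5.89, 6.15 and 5.93 untreated and at 5.72, 5.90 and 5.86 treated in its brightest probe set. These groups overlapped, and the difference was log2 -0.17 ± 0.09 (adjusted p = 0.189; interval -0.37 to 0.04). The array carries 7 probe sets that name nad1 alone, more than for any other of the 10 genes, and the pieces of the trans-spliced gene they lie in are not given in the sources used here. Of these 7, only the second dimmest passed, at 4.44, 4.39 and 4.53 untreated and 4.19, 3.94 and 4.17 treated (log2 -0.35 ± 0.09; adjusted p = 0.00726). The other 6 had differences of log2 -0.17 to 0.10 and did not pass. Of all tested probe sets 41.7% passed. In the lowest-level tercile of all probe sets, where most of the 7 lie, 10.3% passed. In the middle tercile, where the rest lie, 51.7% passed. Signs were mixed among the 7, with a median of 0.03. In a further pair of probe sets that name nad1 beside the nuclear loci AT2G07701 and AT2G07702, the differences were log2 -0.16 and -0.05, and neither passed. The value for nad1 therefore depends on the probe set: with the dimmest one in place of the brightest it was log2 0.07 (adjusted p = 0.703).

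**Figure D2:**
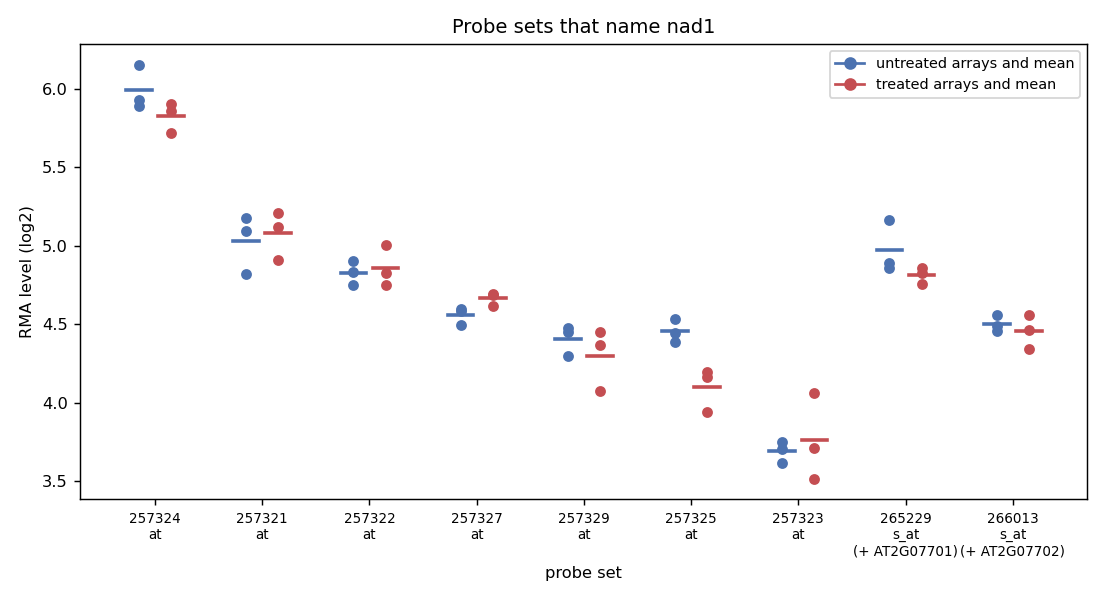
RMA log2 level (vertical axis) of the 7 probe sets that name nad1 alone, ordered by mean level, and of the 2 that name it beside a nuclear locus, with points for single arrays and bars for group means. In the second dimmest of the 7 the treated arrays (3.94 to 4.19) all lie below the untreated arrays (4.39 to 4.53), and in the brightest the groups overlap.

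In cytochrome c maturation, ccb382 stood at 9.47, 9.47 and 9.03 untreated and at 9.0, 8.82 and 8.63 treated. All treated arrays were below all untreated arrays, though by a gap of only 0.03, since untreated replicate 3 was the lowest of its group. The difference was log2 -0.50 ± 0.13 (adjusted p = 0.00844), which is 1.42-fold lower. It kept its sign and passed when any 1 array was left out, at log2 -0.65 to -0.41. It did not pass when the hybridization controls set the scale of each array (log2 -0.30; adjusted p = 0.208). The other measured genes of the same pathway did not pass: ccb203, which encodes the partner fragment of the split ccmFN gene, stood at log2 -0.19 ± 0.09 (adjusted p = 0.134), ccb452 at 0.01 and ccb206 at 0.02.

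A difference between genes on the same array is unaffected by a constant added to that array. The cox2 level minus the cox1 level was -3.53, -3.18 and -3.25 on the untreated arrays and -2.42, -2.30 and -2.09 on the treated arrays, a change of 1.05. The cox2 level minus the ccb382 level changed by 1.23. Within complex I, nad4L minus nad4 changed by 0.57 and nad6 minus nad4 by 0.48. In all 4 comparisons the 3 treated arrays lay above the 3 untreated arrays. For every pair but cox2 minus cox1 this was certain beforehand. In those pairs the treated arrays of the first gene all lay above, and those of the second all below, the untreated arrays. The exact permutation test, two-sided, gave p = 0.10 for each, and 0.10 after Benjamini-Hochberg adjustment over the 4 pairs, which is the smallest p that 3 against 3 arrays allow. The pairs were chosen with the values known, so these p-values add no support and the changes are a description.

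The members were also grouped by the level of their probe set. The 3 members in the highest-level tercile of all probe sets, ccb382, nad4 and cox1, had differences of log2 -0.50 to -0.25, of which 2 passed. Of the 3 in the lowest tercile, nad4L and nad6 rose and nad7 stood at -0.03. Among the 4 in the middle tercile cox2 rose and the other 3 did not pass. Across the 10 genes, Pearson's r between mean level and difference was -0.71 and Spearman's rho -0.81. This is a description across genes that share the same 6 arrays, includes 5 genes that did not pass, and was not tested. It leaves out the other mitochondrial genes. Of these, matR, ccb206 and nad5, in the lowest tercile, stood at -0.07, 0.02 and -0.01. In the middle tercile ccb203, ccb452 and orfX stood at -0.19, 0.01 and -0.43. Of probe sets naming several genes, those in the highest tercile named atp9 (0.39), atp1 (-0.25) and rps3 with rpl16 (-0.41). The dim nad1 probe set that fell lies in the lowest tercile, and signal differs between probe sets for reasons other than transcript abundance. In the lowest tercile of all tested probe sets 10.3% passed, 4.05% higher, against 63.1% in the highest, where 32.4% were higher and 30.7% lower. In the middle tercile 51.7% passed, 21.8% higher and 29.8% lower. The 7 members in the lowest and middle terciles all had means below the median probe set, and their signal over background was not measured.

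**Figure D3:**
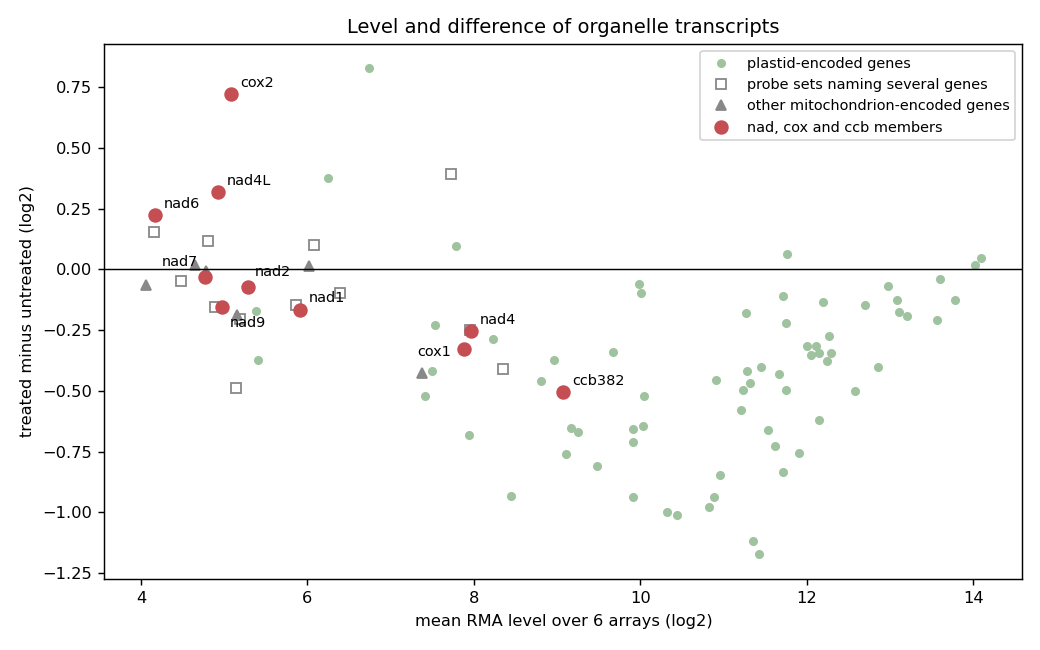
Treated minus untreated difference (log2, vertical axis) against the mean RMA level over 6 arrays (log2, horizontal axis) for the 10 nad, cox and ccb genes, 6 other mitochondrion-encoded genes, 12 probe sets naming a mitochondrial gene beside another gene, and 69 plastid-encoded genes. The members run from cox2 at a level of 5.08 and a difference of 0.72 to ccb382 at 9.07 and -0.50.

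Array medians lay between 6.22 and 6.27. Anchoring the arrays on control transcripts adds 1 constant to all differences by construction. Anchoring the arrays on the 13 brighter of 24 bacterial poly(A) spike sets raised every difference by 0.14, on all 24 by 0.06, and on 18 hybridization control sets by 0.21. The increases of cox2, nad4L and nad6 passed in all 3 of these settings, cox2 at log2 0.78 to 0.93. The decrease of ccb382 passed in the first 2, at -0.36 and -0.44. That of nad4 passed in none. For nad1, nad2, nad7 and nad9, which did not pass, the constant was larger than the difference in at least 1 of them. Untreated replicate 1 was the highest untreated array for 7 of the 10 genes, against 30.5% of all tested probe sets. Without it nad4 was the only one of the 5 called genes whose call ended, and the part of that array in the other differences was not tested.

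**Figure D4:**
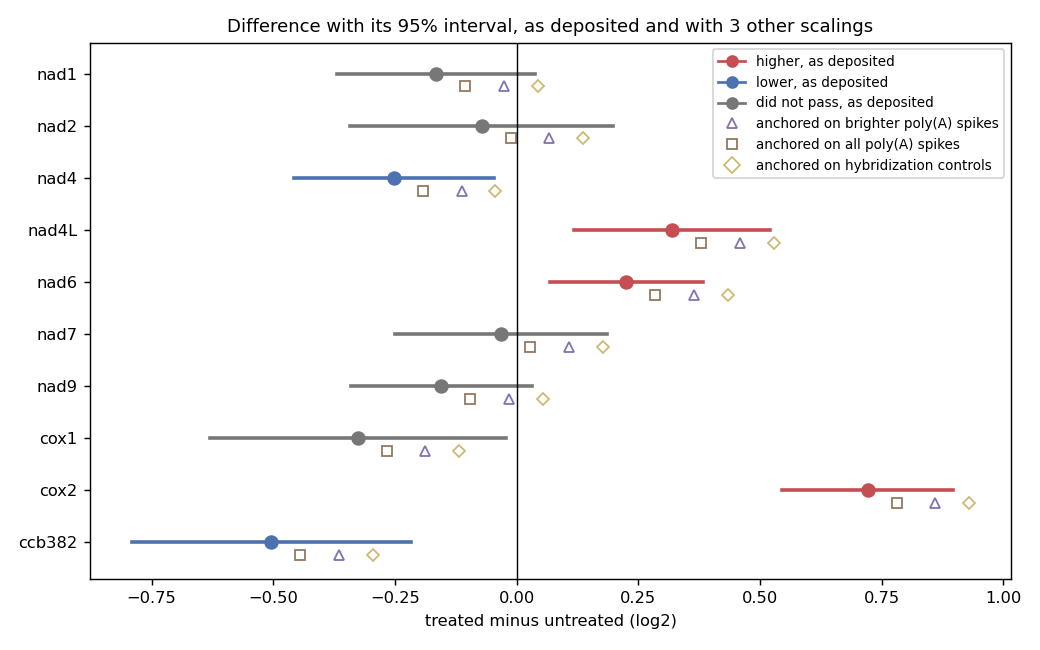
Treated minus untreated difference (log2, horizontal axis) of each of the 10 genes, with filled points for the values as deposited, lines for their unadjusted 95% intervals, and open marks for the same difference with arrays anchored on the brighter poly(A) spikes, all poly(A) spikes or the hybridization controls. The marks of cox2, nad4L and nad6 are above 0 in every scaling shown, and those of nad4 and ccb382 below 0.

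Of 6 other mitochondrial genes read from a probe set naming 1 gene, 1 fell and none rose, against 41.7% called of all probe sets. In the lowest and middle terciles, where these 6 genes lie, 10.3% and 51.7% were called. The one was orfX, which RefSeq lists as mttB, for a TatC-like membrane protein, at 7.76, 7.39 and 7.63 untreated and 7.34, 7.12 and 7.05 treated. Its treated arrays were all below the untreated ones, and the difference was log2 -0.43 ± 0.11 (adjusted p = 0.00807). The call was lost on the scales set by the brighter poly(A) spikes and by the hybridization controls, without limma's moderation and against a minimum change of log2 0.5, and the probe set shares probes with other sequences. The others were ccb203, ccb206, ccb452, the intron maturase gene matR (log2 -0.07) and the complex I gene nad5 (log2 -0.01). None of these 5 passed, with adjusted p of 0.134 or above.

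A nuclear copy of mitochondrial DNA lies on chromosome 2 of the Col-0 genome, and probes can read both. In 11 probe sets the platform table names a mitochondrial gene together with a chromosome 2 locus. Of these only the set naming atp9, for the ring subunit of the ATP synthase, passed, at log2 0.39 ± 0.08 (adjusted p = 0.00229). The 11 sets are spread over the lowest, middle and highest terciles, in which 10.3%, 51.7% and 63.1% of all probe sets were called. The atp9 set lies in the highest. The set naming rps7 had the largest decrease, log2 -0.49 ± 0.19, and did not pass (adjusted p = 0.0572). A twelfth probe set, which names the overlapping mitochondrial ribosomal protein genes rps3 and rpl16, fell by 0.41 on the log2 scale (adjusted p = 0.0440). Of 22 probe sets that name a single locus between AT2G07671 and AT2G07734, 2 fell and none rose, with a median of -0.01. Of all probe sets 41.7% were called. In the lowest tercile, where most of the 22 lie, 10.3% were called, and in the middle tercile 51.7%. The part of the nuclear copy in the signals of the 10 genes was not tested.

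The nuclear genes that work with these subunits were read from lists of 132 entries, of which 16 were matched to a probe set naming 1 gene. An entry without a match is not thereby absent from the array, since many probe sets are not listed in the platform table. Of the 16, 7 rose and 1 fell, where 19.4% of all probe sets rose and 22.2% fell. In both directions together the share of 8 in 16 is near the 41.7% of all probe sets. Whether the split by direction differs from that of all probe sets was not tested. Both cytochrome c genes, for the carrier that the CcmF pathway matures and complex IV oxidises, rose. CYTC-2 stood at 8.70, 8.25 and 8.12 untreated and at 10.04, 10.01 and 10.08 treated, 3.22-fold higher (log2 1.69 ± 0.13; adjusted p = 1.05e-06). CYTC-1 rose 1.72-fold (log2 0.78 ± 0.07; adjusted p = 5.72e-06). In each the treated arrays lay above all untreated arrays. CCMH, for a protein of the heme attachment machinery, stood at log2 0.09 (adjusted p = 0.381).

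Of 5 measured genes of complexes II, III and V, 4 rose, all of them in the highest-level tercile, where 32.4% of all probe sets rose. The iron-sulfur subunit gene of complex II, SDH2-1, rose 2.30-fold, from 9.22, 9.09 and 9.29 to 10.40, 10.32 and 10.50 (log2 1.20 ± 0.08; adjusted p = 5.79e-07), with no overlap. The flavoprotein subunit gene SDH1-1 rose 2.26-fold (log2 1.17 ± 0.10; adjusted p = 2.07e-06). The other risers were SDH2-2 and MPPBETA, at log2 0.44 and 0.46, and SDH1-2 stood at 0.04. Of 4 alternative NADH or NADPH dehydrogenase genes, which bypass complex I, NDB1 fell by 1.28 on the log2 scale (SE 0.11; adjusted p = 3.28e-06) and NDB2 rose by 0.34 (adjusted p = 0.00502). NDB1 levels were 8.15, 8.11 and 7.89 untreated and 6.54, 6.93 and 6.85 treated, which did not overlap. The only complex I entry matched to a probe set was GLDH, an assembly protein and vitamin C enzyme, at log2 -0.07 (adjusted p = 0.583). None of the 11 complex IV entries listed was matched to a probe set. Of the RNA processing factors, OTP43, needed for nad1 trans-splicing, stood at log2 -0.10 (adjusted p = 0.436) and OTP87 at 0.02. The genome maintenance gene OSB1 stood at 0.05.

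**Figure D5:**
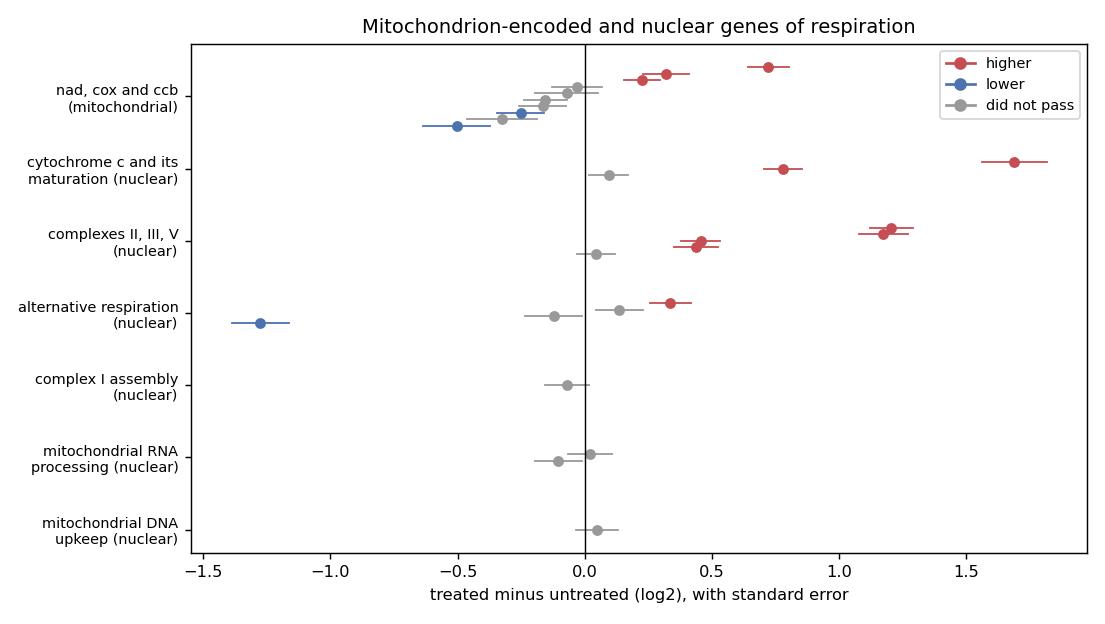
Treated minus untreated difference (log2, horizontal axis) with its standard error for the 10 mitochondrion-encoded genes and for 16 measured nuclear genes in 6 lists, coloured by whether the gene passed the test. The nuclear differences reach from -1.28 in NDB1 to 1.69 in CYTC-2, and the mitochondrion-encoded ones from -0.50 to 0.72.

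Among plastid-encoded transcripts, the other organelle group on the array, 41 of 69 genes fell and 2 rose, with a median of log2 -0.40. Of all probe sets 22.2% fell and 19.4% rose, and in the highest tercile 30.7% fell and 32.4% rose. On the scale set by the hybridization controls 21 plastid genes fell. On that scale 1914 of all 22746 probe sets fell, against 5059 as deposited. Whether this differs from the mitochondrial genes was not tested.

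The tissue label was checked against its markers. The 5 measured leaf genes (RCA, PRK, SBPASE, LHCB4.1 and LHCB4.2) had mean levels of 12.2 to 14.3. The root hair expansin genes EXPA7 and EXPA18 had 4.48 and 5.40, and no flower marker was matched to a probe set. Of the leaf genes LHCB4.1 and LHCB4.2 fell. Of 3 guard cell lineage genes SPCH fell (log2 -0.49) and MUTE (0.11) and FMA (0.14) did not pass; their part in the results was not tested. Averaged over the 10 genes, each centred on its own mean, the level ran only from -0.07 to 0.10 over the 6 arrays. The members moved in opposite directions, so this near-flat mean stands for no single member. Among 1547 genes with a symbol, those nearest to it by Euclidean distance over 6 arrays were SLOMO (0.08), GH9B18 (0.08), LUL2 (0.09), MAP1D (0.10) and ALDH11A3 (0.10). None of these passed the test, but nearness to a near-flat profile itself selects genes with small differences.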

How the data were processed

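The authors deposited log2 values, 1 per probe set and array. The tool named for them, per the submitters' processing notes, is RMA, with no version, and no source used here says whether further arrays were normalized with these 6. Of 22810 probe sets, 64 control sets were kept apart and 22746 tested with no filter on low values; the table held 0 columns of other samples. Genes were named from the platform table (13513 probe sets name 1 gene, 503 several, 8730 are not listed) and RefSeq's gene table of TAIR10.1, used for names only. Mitochondrial genes were matched by symbol or synonym.

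Groups came from the titles, whose replicates are labelled biological. For each probe set a linear model was fitted in R 4.3.3 with limma 3.58.1 (eBayes, two-sided, no covariates, Benjamini-Hochberg). The median standard error was 0.09; the number of arrays limits the precision. Steps were tested on simulated data for treated against untreated over 22746 probe sets. Of 67 changed by log2 0.5, 63 were recovered, and all 67 and 66 changed by 1 and 2, with 19 false calls. Far fewer probe sets were changed there than were called in the data, and no change below log2 0.5 was tried. The simulation therefore does not bear on the smaller differences of nad4L, nad6 and nad4. Python 3.11.15 with pandas 2.3.3 and matplotlib 3.10.9 made summaries and plots.

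The members and lists were chosen with earlier results of these data known. All members are named with their values; of each list the 2 largest called increases and decreases are named, or the largest value where none passed, and SDH2-2, SDH1-2, MPPBETA, OTP87 and the remaining other mitochondrial genes were added after their values were seen. Other settings tried were a block for the replicate number, other scalings (3 of them on spikes), filters, moderation, array weights, thresholds, probe set choice and leaving out each array.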

Additional observations from a re-analysis of the deposited data

How the results depend on the processing

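The increase of cox2 kept its sign and passed in 17 of 18 alternatives (log2 0.67 to 0.93), the exception being limma's treat at log2 0.5 (adjusted p = 0.0727). That of nad4L passed in 14 of 18, that of nad6 in 10 of 17, and the decreases of ccb382 and nad4 in 16 and 6 of 19. The count of members that rose was 3 as deposited, 0 without the dimmest 40% of probe sets (which removes 6 of the 10) and with treat, 1 at an adjusted p of 0.01, and 1 (without untreated replicate 3) to 3 when single arrays were left out. The count that fell was 2 as deposited, 1 after equal medians, with the brighter or all poly(A) spikes and at 0.01, 0 with hybridization controls, without moderation and with treat, and 1 to 2 when single arrays were left out. Of other mitochondrial genes 1 fell as deposited, 0 with the brighter spikes, hybridization controls, treat, no moderation or shared probes left out, and 1 to 2 when single arrays were left out (2 without untreated replicate 1). Of plastid genes 41 fell and 2 rose as deposited. With hybridization controls 21 fell, without moderation 18, and with treat 9, with 1 rising. Over all probe sets 5059 fell as deposited, 1914 with hybridization controls, 3968 without moderation and 1380 with treat. Of nuclear genes 7 rose, and 4 with treat. Signs turned for nad2 (0.067 with the brighter spikes, 0.14 with hybridization controls), nad7 (0.11 and 0.18 in the same settings, 0.028 with all spikes), nad1 (0.043 with hybridization controls, 0.072 in its dimmest probe set) and nad9 (0.054 with hybridization controls), and when single arrays were left out nad2 ran from -0.20 to 0.032 and nad7 from -0.11 to 0.069. None of these passed. Among the members another probe set could be taken for nad1 alone, and nad6 has no value with shared probes left out. The anchored settings add a constant by construction; the other causes were not tested.

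The replicate number as a block ended the call of nad4 (adjusted p = 0.0611) and brought cox1 past the threshold (adjusted p = 0.0256), with 9190 calls over all probe sets against 9479. Deviations of same-numbered arrays correlated at 0.0702, -0.0641 and 0.000766, and not every array correlated best with its own number. The values thus show no pairing by number. Whether same-numbered replicates were grown or harvested together was not tested. Over all probe sets 46.6% of calls were higher as deposited, 65.0% with the brighter spikes and 71.2% with hybridization controls, and the median difference was 0.13 and 0.20 in these. Treat called 2699. Signal over background was not measured, and 3 arrays per group limit the precision.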
